A study of Mus musculus with 48 samples.

Results

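Pyramidal cells of ventral CA1 that project to the amygdala were set against those that project to the nucleus accumbens, with 3 libraries each, 6 of the 48 libraries of a series on 16 populations of mouse hippocampal neurons. The comparison took every Ensembl gene row of the deposited count table, 37620 rows without spike-in and summary lines, of which 18867 held at least 1 read in the 6 libraries. The labels describe the first group as ventral CA1 pyramidal cells that project to the amygdala and the second as those that project to the nucleus accumbens. Another group, ventral CA1 pyramidal cells with no projection named (3 libraries), shared the fit and serves as a common point of comparison. In all 3 groups fluorescent neurons were sorted by hand from microdissected slices, and their RNA was amplified before sequencing. The sources used here give no strain, age, sex, tracer or transgene for these groups, and do not say whether the libraries of a group came from separate animals. P-values therefore measure only the spread between these libraries, which may be technical.

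Ventral CA1 is the part of the hippocampal output field that is linked to emotion and motivation. Its pyramidal cells send axons to the amygdala, which is known for its part in fear learning, and to the nucleus accumbens, a part of the striatum known for its part in reward. These cells release glutamate, and their sorting by target rests on axons that end far from the cell body. Cell adhesion molecules, axon guidance cues, receptors and transcription factors are the classes of genes that are known to differ between neurons with different targets elsewhere in the brain.

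Very few genes separated the groups by a test across the genome. Of 12981 genes with enough reads to be tested, 3 were called at an adjusted p under 0.05 in edgeR's quasi-likelihood test with Benjamini-Hochberg adjustment, which is 0.0231% of the genes. All 3 were lower in amygdala-projecting cells: Dlk1, an imprinted membrane protein related to Notch ligands, Grm2, an inhibitory metabotropic glutamate receptor, and Alcam, a cell adhesion molecule of the immunoglobulin superfamily. No gene was called higher in amygdala-projecting cells by that test, where 519 genes (4%) passed an unadjusted p of 0.05 in that direction and 674 (5.19%) in the other, 9.19% of genes in all. With the 6 projection libraries fitted alone no gene was called, with 600 genes at an unadjusted p under 0.05. DESeq2 called 67 genes higher and 132 genes lower in amygdala-projecting cells. The count of calls thus turned on the test and on the libraries fitted.

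The libraries of each projection group differed among themselves about as much as the groups did. The median absolute difference of log2(CPM + 1) between a pair of libraries, where CPM is the read count scaled to a common library size, was 0.586 to 0.669 among amygdala libraries and 0.707 to 0.829 among accumbens libraries. Between an amygdala and an accumbens library it was 0.605 to 0.793. Among the ventral libraries it was 0.324 to 0.419, lower than in either projection group. The biological coefficient of variation, the relative spread between libraries of a group beyond counting error, was 0.811 in the amygdala group, 0.903 in the accumbens group and 0.397 in the ventral group. Some genes were all or none within a group: 20 genes had no read in 1 amygdala library and at least 20 CPM in another, against 67 genes in the accumbens group and 0 genes in the ventral group.

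**Figure D1:**
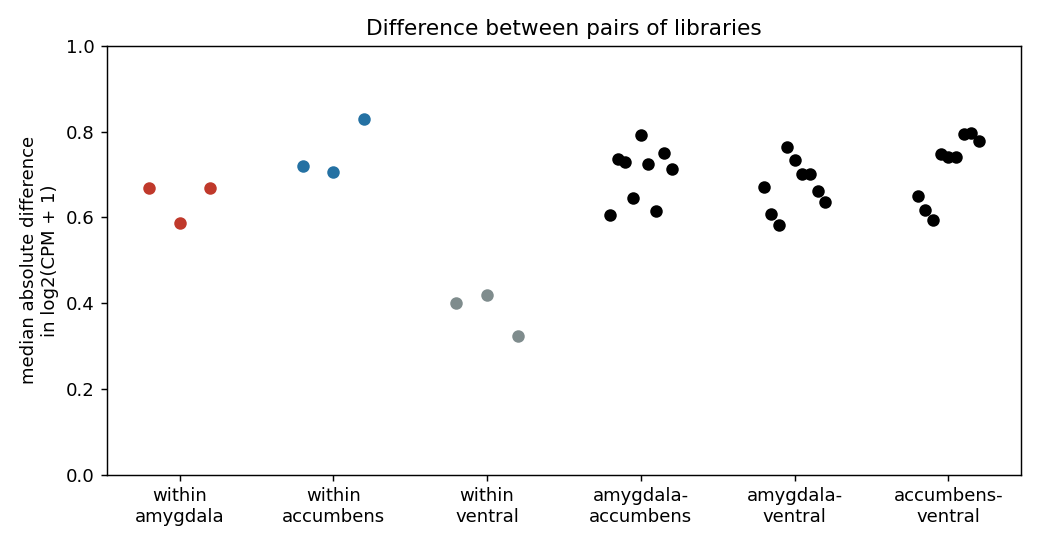
Median absolute difference in log2(CPM + 1) over the genes tested (y axis) for each pair of libraries (points), by the groups of the pair (x axis). Pairs within the accumbens group lie at 0.707 to 0.829 and overlap pairs of an amygdala and an accumbens library at 0.605 to 0.793, while pairs of ventral libraries lie at 0.324 to 0.419.

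Reads counted in genes were 14.17 to 20.91 M in amygdala libraries, 13.82 to 17.33 M in accumbens libraries and 5.117 to 8.354 M in ventral libraries. Mitochondrial genes took 16.59% to 20.24% of reads in amygdala libraries, 15.38% to 16.82% in accumbens libraries and 11.3% to 12.9% in ventral libraries. Known genes were checked against the label of ventral CA1 pyramidal cells, and no gene listed bears on the projection target. Slc17a7, the vesicular glutamate transporter of pyramidal cells, lay at 1708 to 2262 CPM in amygdala libraries and 1207 to 2632 CPM in accumbens libraries. Ventral libraries lay lower, at 651.5 to 751.3 CPM (adjusted p = 0.0011 against amygdala cells and 0.00145 against accumbens cells, edgeR). Wfs1, a marker of dorsal CA1, lay at 22.4 to 44.8 CPM in amygdala libraries and 8.7 to 84.9 CPM in accumbens libraries, against 1374 to 1528 CPM in dorsal CA1 of the same series. Etv1, a gene of ventral CA1, lay at 826.5 to 848.4 CPM and 760.9 to 833.4 CPM in amygdala and accumbens libraries, against 233 to 249.1 CPM in dorsal CA1. The 8 CA1 markers summed to 1433 to 1643 CPM in amygdala libraries and 1247 to 1614 CPM in accumbens libraries, below the 1945 to 2060 CPM of ventral libraries. The 12 subiculum markers summed to 151.4 to 325.8 CPM in amygdala libraries and 258.7 to 361.3 CPM in accumbens libraries. Their ventral sums were 118.5 to 167.8 CPM. Pvalb, Cx3cr1 and Cldn5, which define parvalbumin interneurons, microglia and endothelial cells, had no read in any of the 9 libraries.

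Libraries of both projection groups also held reads of genes listed as markers of other cell types, which the label does not name. The 12 astrocyte markers summed to 637.5 to 745.7 CPM in amygdala libraries and 455.8 to 629.9 CPM in accumbens libraries. Their ventral sums were 378.4 to 499.9 CPM, and 3 and 6 of them had no read in the amygdala and accumbens groups. Of 5 tested, 0 were called. Gfap and Aqp4, which define astrocytes, were near absent and not tested. Gfap reached 1.19 CPM at most in amygdala libraries and 0 CPM in accumbens libraries. Aqp4 reached 0.0521 CPM and 1.21 CPM in the same order. The astrocyte sums thus came from other members of the list. Among the projection libraries, accumbens library 3 stood apart by transcripts of inhibitory neurons. Gad1, which makes GABA, had 0, 0 and 0.103 CPM in the amygdala libraries and 0, 0 and 17.1 CPM in the accumbens libraries. Gad2, also a GABAergic marker, had 0.261, 0.371 and 0.0515 CPM in the amygdala libraries and 0.864, 0.717 and 36.8 CPM in the accumbens libraries. Ventral libraries held both, at 1.99 to 3.35 CPM for Gad1 and 11.2 to 14.4 CPM for Gad2. Sst, the neuropeptide somatostatin, had 43.9, 1.85 and 19.0 CPM in the amygdala libraries and 5.70, 0.359 and 506.5 CPM in the accumbens libraries. The summed level of the 9 GABAergic markers was 35.3 to 60.4 CPM in amygdala libraries and 16.3 to 132.6 CPM in accumbens libraries, and 3 of them had no read in any amygdala library, against 2 in accumbens libraries. The 8 markers of somatostatin interneurons summed to 393.4 to 488.5 CPM and 180.7 to 1125 CPM in the amygdala and accumbens libraries. The 6 markers of parvalbumin interneurons summed to 125.5 to 144.9 CPM and 71.3 to 140.9 CPM in the same order. Of 4 tested, 3 had a log2 fold change of amygdala over accumbens cells above 0 and 1, Erbb4, below. Erbb4 had 36.4 CPM in accumbens library 3 and 0.346 CPM at most in the other projection libraries. Accumbens library 2 stood apart by other genes. Rgs5, a marker of mural cells, had 12.2, 2.97 and 0.876 CPM in the amygdala libraries and 1.15, 122.9 and 40.3 CPM in the accumbens libraries. Mobp, a myelin gene, had 0.886, 0 and 2.22 CPM in the amygdala libraries and 0.115, 16.7 and 0 CPM in the accumbens libraries. The 9 pericyte and mural markers summed to 7.68 to 22.4 CPM in amygdala libraries and 11.0 to 141.7 CPM in accumbens libraries, with no read for 4 and 3 of them. Kdr, an endothelial receptor, was present in both projection groups, at 31.3 to 96.0 CPM and 10.6 to 52.7 CPM in amygdala and accumbens libraries. It lay at 0 to 3.35 CPM in ventral libraries. The 12 endothelial markers summed to 61.9 to 113.1 CPM in amygdala libraries and 17.3 to 64.0 CPM in accumbens libraries. Their ventral sums were 7.61 to 11.8 CPM. Of the 12, 5 and 4 had no read in the amygdala and accumbens groups, Cldn5 among them. Pecam1, also an endothelial marker, had 0, 7.12 and 3.81 CPM in the amygdala libraries and 1 read in the accumbens group. Results without accumbens library 2 or 3 are given beside the genes they touch and at the end. The source of the Kdr reads was not tested. In these bulk samples, fewer cells that use a gene and less RNA per cell cannot be told apart.

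Each called gene is also set against ventral CA1, where amygdala cells had 309 calls (2.38% of genes tested), 207 higher (1.59%) and 102 lower (0.786%). Accumbens cells had 265 calls against ventral CA1 (2.04%), 193 higher (1.49%) and 72 lower (0.555%). Both contrasts share the ventral libraries, which were shallower and varied less.

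Alcam encodes a membrane protein that binds itself and CD6 on neighbouring cells and takes part in axon growth and bundling. It had 6.62, 5.79 and 11.0 CPM in the amygdala libraries, against 124.6, 122.1 and 22.4 CPM in the accumbens libraries and 464.1, 392.4 and 325.4 CPM in the ventral libraries. The groups did not overlap, and the lowest accumbens library, library 3, was still above the highest amygdala library. The log2 fold change of amygdala over accumbens cells was -3.54 with a standard error of 0.50, 11.6-fold higher in accumbens cells (adjusted p = 0.0161, edgeR). Against ventral CA1, Alcam was lower in amygdala cells (log2 fold change -5.64, adjusted p = 4.31e-05) and in accumbens cells (log2 fold change -2.11, adjusted p = 0.0287), by the same edgeR fit. The call was lost without accumbens library 1 or 2, with adjusted p of 0.0838 and 0.0695, and without any 1 amygdala library, with adjusted p of 0.0688 to 0.102. Of the 15 other populations in the series, each had every library above the highest amygdala library. By mean, the lowest of them were the dorsal dentate gyrus, at 68.2 to 112.4 CPM, and accumbens cells, whose library 3 at 22.4 CPM lay nearest to the amygdala range.

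Grm2 encodes mGlu2, a receptor that lowers transmitter release and cyclic AMP through inhibitory G proteins. It had 0, 0 and 0.0515 CPM in the amygdala libraries, which is 1 read in all 3 together, against 18.1, 3.95 and 17.2 CPM in the accumbens libraries, which is 655 reads. The ventral libraries had 17.6, 12.3 and 12.8 CPM. Accumbens and ventral libraries overlapped, and amygdala libraries stood below both. The ratio of accumbens over amygdala reads, scaled for depth, was 711, with an exact 95% interval of 127 to 28100 that covers counting error only (adjusted p = 0.0161, edgeR). Against ventral CA1, amygdala cells were lower (log2 fold change -8.98, adjusted p = 0.000992), and accumbens cells had a log2 fold change of -0.10 (adjusted p = 0.974). The call was lost without ventral library 1, 2 or 3, with adjusted p of 0.0823, 0.0581 and 0.0645, without accumbens library 1, with adjusted p of 0.0838, and without any 1 amygdala library, with adjusted p of 0.0724 to 0.0896. Grm3, the other member of that receptor group, lay at 3.87 to 38.8 CPM in amygdala libraries and 1.68 to 27.7 CPM in accumbens libraries, so its groups overlapped. It was chosen for its kinship with Grm2. Across the series Grm2 was highest in granule cells, at 126.2 to 230.2 CPM in the dorsal and 33.9 to 67.9 CPM in the ventral dentate gyrus. It was near absent in other pyramidal cells too, with no read in postsubiculum-projecting cells and 0.103 to 0.180 CPM in dorsal, 0.0890 to 0.133 CPM in proximal and 0.0754 to 0.136 CPM in distal CA1. Of 15 other populations, 13 had every library above the highest amygdala library, which held 1 read.

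Dlk1 encodes a transmembrane protein with EGF repeats that is made from the paternal copy of an imprinted region and known for holding back differentiation. It had 0.104, 0.148 and 0 CPM in the amygdala libraries, which is 4 reads in all, against 15.4, 177.2 and 11.2 CPM in the accumbens libraries, which is 2926 reads. The ventral libraries had 46.0, 48.9 and 16.3 CPM. The amygdala libraries stood below all others of these groups, and accumbens library 2 was far above the other 2 accumbens libraries. The log2 fold change of amygdala over accumbens cells was -9.63 with a standard error of 1.31 (adjusted p = 0.0161, edgeR), a value that rests on 4 reads in the lower group. Without accumbens library 2 it was -7.25 (adjusted p = 0.0136), and the call was lost without any 1 amygdala library, with adjusted p of 0.0869 to 0.103. Against ventral CA1, the log2 fold change was -8.72 in amygdala cells (adjusted p = 0.00133) and 0.91 in accumbens cells (adjusted p = 0.698). Elsewhere in the series Dlk1 had no read in 3 populations, and 10 of 15 had every library above the highest amygdala library. Meg3, the noncoding RNA of the same imprinted region, was high in both groups, at 1417 to 2705 CPM in amygdala libraries and 2701 to 5016 CPM in accumbens libraries (log2 fold change -1.01, adjusted p = 0.496). It was chosen after its values were seen.

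**Figure D2:**
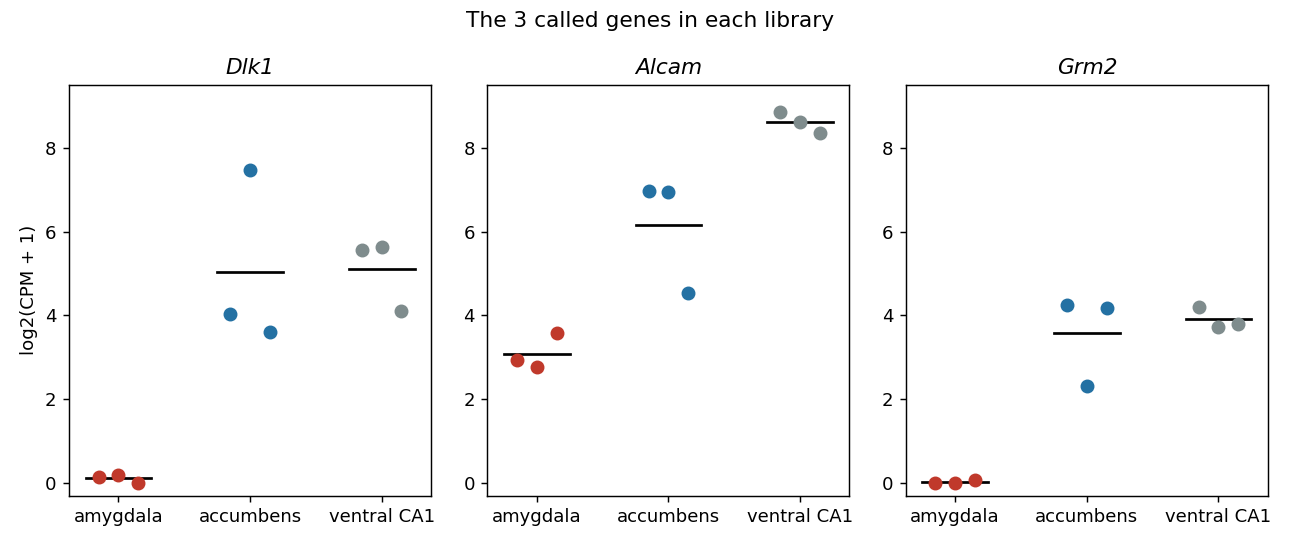
Level of Dlk1, Alcam and Grm2 as log2(CPM + 1) (y axis) in the 3 libraries (points) of amygdala-projecting, accumbens-projecting and ventral CA1 cells, with the mean of the plotted values as a line. Amygdala libraries lie below all accumbens and ventral libraries in each panel, and Dlk1 in accumbens library 2, at 177.2 CPM, lies above the other 2 accumbens libraries.

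Levels per transcript length can be set between genes. In the deposited FPKM values, Alcam lay at 1.13 to 2.59 FPKM in amygdala libraries, 13.2 to 64.4 FPKM in accumbens libraries and 96.9 to 201.3 FPKM in ventral libraries. Dlk1 reached 0.129 FPKM at most in amygdala libraries and lay at 4.56 to 55.0 FPKM in accumbens libraries. Grm2 reached 0.0178 FPKM at most in amygdala libraries and lay at 1.45 to 6.16 FPKM in accumbens libraries. Per length, Alcam was thus the most abundant of the 3 in ventral libraries, where Grm2 at 4.30 to 6.18 FPKM and Dlk1 at 4.47 to 20.2 FPKM overlapped. The 3 genes kept their separation on that scale.

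The promoter windows of the 3 called genes are shown since the genes share their direction. Each runs from 250 bases before to 50 bases after the start in the RefSeq table for GRCm38.p6, another build than that of the files, and is written 5′ to 3′ on the strand of the gene. Capitals mark matches to 5 motifs, searched on both strands: the TATA box TATAAA, the CCAAT box CCAAT, the GC box GGGCGG, the E-box CACGTG and the cyclic AMP response element TGACGTCA.
Dlk1, chr12:109452573-109452872, plus strand: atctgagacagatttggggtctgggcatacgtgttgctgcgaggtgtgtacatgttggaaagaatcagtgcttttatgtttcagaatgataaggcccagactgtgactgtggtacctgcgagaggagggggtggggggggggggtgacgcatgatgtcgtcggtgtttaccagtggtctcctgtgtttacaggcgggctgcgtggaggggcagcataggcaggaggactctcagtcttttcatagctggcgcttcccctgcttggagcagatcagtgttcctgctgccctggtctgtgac
Grm2, chr9:106656060-106656359, minus strand: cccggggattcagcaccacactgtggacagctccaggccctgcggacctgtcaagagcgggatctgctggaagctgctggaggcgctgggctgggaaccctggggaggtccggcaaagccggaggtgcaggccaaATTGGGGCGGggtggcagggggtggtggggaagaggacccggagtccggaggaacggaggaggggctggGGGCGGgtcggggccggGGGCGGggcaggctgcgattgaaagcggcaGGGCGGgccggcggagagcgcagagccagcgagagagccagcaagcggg
Alcam, chr16:52453032-52453331, minus strand: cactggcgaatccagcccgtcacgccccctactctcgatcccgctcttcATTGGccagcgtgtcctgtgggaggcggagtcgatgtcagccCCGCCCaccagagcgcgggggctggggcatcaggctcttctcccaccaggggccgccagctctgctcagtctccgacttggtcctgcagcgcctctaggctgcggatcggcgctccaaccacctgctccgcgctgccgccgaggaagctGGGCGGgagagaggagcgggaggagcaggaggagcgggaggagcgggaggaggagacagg
Grm2 and Alcam had 72.0% and 69.7% G and C, with 22 and 25 CpG sites, against a median of 52.7% and 7 over 32851 promoters. Dlk1 had 55.7% and 9. The GC box was found 4 times in Grm2 and at 2 places in Alcam, where 35.7% of all promoters held it. A CCAAT box on the other strand stood in Grm2, where it overlapped a GC box, and in Alcam, where 37.4% of all promoters held one. The TATA box, held by 13.6% of promoters, the E-box, held by 7.15%, and the cyclic AMP element, held by 1.79%, were not among the letters of these 3 windows, and none of the 5 motifs was found in that of Dlk1. These matches describe letters in a window and not binding.

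Beyond the called genes, a gene was named if all libraries of 1 group lay above all of the other and its higher group averaged at least 10 CPM, with the smallest p first, up to 12 genes per direction. Over all genes tested, 10.6% had groups that did not overlap, 5.5% with amygdala libraries above and 5.13% with accumbens libraries above. Such separation has an exact two-sided permutation p of 0.1 with 3 libraries a group, and the share found was near that value. The 21 genes that follow did not pass the test, with adjusted p from 0.108 to 0.322 in edgeR, and are given by their values. Separation is part of the rule that chose them. In the FPKM values 21 of the 24 named genes were separated the same way, without Nfia, Thada and Cntn3.

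Among the genes with higher values in accumbens cells, 2 encode receptors for neuropeptides. Tacr1, the receptor for substance P, had no read in the amygdala libraries, against 12.5, 28.1 and 1.26 CPM in the accumbens libraries. That is at least 78.5-fold higher in accumbens cells when the amygdala libraries are set to a floor of 3 reads each (adjusted p = 0.157, edgeR), and at least 38.7-fold without accumbens library 2. Nmbr, the neuromedin B receptor, had 1.30, 1.48 and 0.103 CPM in the amygdala libraries, against 8.64, 116.6 and 31.7 CPM in the accumbens libraries (adjusted p = 0.157, edgeR). The ventral libraries were near the amygdala ones for both, at 0.376 to 1.04 CPM for Tacr1 and 0.924 to 3.64 CPM for Nmbr. Against ventral CA1, Nmbr was higher in accumbens cells (log2 fold change 4.78, adjusted p = 0.0306, edgeR), with a log2 fold change of -1.02 in amygdala cells (adjusted p = 0.74).

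Fezf2, a transcription factor that specifies neurons with subcortical targets in the neocortex, had 18.7, 41.2 and 22.1 CPM in the amygdala libraries, against 121.2, 193.9 and 67.4 CPM in the accumbens libraries (adjusted p = 0.157, edgeR). The ventral libraries lay between, at 49.7 to 78.7 CPM. Zc3h3, a zinc finger protein of mRNA export, had 2.03, 1.78 and 0.928 CPM in the amygdala libraries, against 44.6, 40.5 and 15.8 CPM in the accumbens libraries (adjusted p = 0.108, edgeR). Against ventral CA1 it was higher in accumbens cells (log2 fold change 3.46, adjusted p = 0.0241).

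Cell surface proteins came next. Cdh13, a cadherin held by a lipid anchor, had no read in the amygdala libraries, against 1.38, 26.3 and 2.52 CPM in the accumbens libraries and 7.05 to 9.24 CPM in the ventral libraries. It was at least 56.5-fold higher in accumbens cells against the same floor (adjusted p = 0.157, edgeR), a bound that rests on accumbens library 2 and is 11-fold without it. Against ventral CA1 it was lower in amygdala cells (adjusted p = 0.0139). Cntn3, a contactin of the immunoglobulin superfamily, had 1.77, 8.23 and 3.40 CPM in the amygdala libraries, against 42.5, 82.4 and 11.1 CPM in the accumbens libraries. Its ventral libraries lay at 49.7 to 76.0 CPM, above the amygdala libraries by the same fit (adjusted p = 0.0107). In FPKM the amygdala and accumbens libraries overlapped, at up to 2.36 FPKM in amygdala libraries and from 2.31 FPKM in accumbens libraries.

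The remaining 3 genes with higher values in accumbens cells spread widely between the accumbens libraries. Slc8a3, a sodium-calcium exchanger, had 0, 0.0742 and 0 CPM in the amygdala libraries, against 0.749, 60.7 and 1.02 CPM in the accumbens libraries. Its ratio of 951, with an exact 95% interval of 170 to 37600, came almost wholly from accumbens library 2, and was 45.9 without it, with an interval of 7.63 to 1870. Tango6 had 1 read in the amygdala libraries and 24.3, 6.24 and 0.840 CPM in the accumbens libraries, a ratio of 568 with an interval of 101 to 22500, and of 172 without accumbens library 1, with an interval of 30.1 to 6850. Cpne4, a calcium-dependent membrane-binding copine, had 1.51, 0.890 and 0.722 CPM in the amygdala libraries, against 22.8, 33.2 and 4.68 CPM in the accumbens libraries. Of the 12 genes with higher values in accumbens cells, 8 had their highest value in accumbens library 2 and 8 their lowest accumbens value in library 3.

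On the amygdala side, 12 genes filled the rule, none of them called. By mean, ventral CA1 lay above accumbens cells in 11 of them, and amygdala cells lay above ventral CA1 in 9. Zfp239, a zinc finger protein, had 56.6, 36.0 and 27.5 CPM in the amygdala libraries, against 4.96, 10.9 and 5.70 CPM in the accumbens libraries (adjusted p = 0.157, edgeR). Mynn, a zinc finger protein with a BTB domain, had 30.6, 33.5 and 41.8 CPM in the amygdala libraries, against 1.79, 6.03 and 2.70 CPM in the accumbens libraries (adjusted p = 0.157, edgeR). In both genes the accumbens cells were below ventral CA1 by the same fit, with log2 fold changes of -2.97 for Zfp239 (adjusted p = 0.00584) and -3.08 for Mynn (adjusted p = 0.0241).

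Nfia, a nuclear factor I transcription factor, had 252.3, 201.9 and 278.5 CPM in the amygdala libraries, against 107.9, 124.7 and 140.2 CPM in the accumbens libraries. It was higher in amygdala cells than in ventral CA1 (log2 fold change 0.93, adjusted p = 0.0439, edgeR), and its ventral libraries lay at 113.8 to 150.4 CPM. The difference from accumbens cells stood at a log2 fold change of 0.95. Smarcb1, a core subunit of the BAF chromatin remodelling complex, had 55.6, 28.5 and 32.2 CPM in the amygdala libraries, against 11.6, 9.90 and 8.82 CPM in the accumbens libraries. Trps1, a GATA-type repressor, had 24.6, 73.1 and 31.2 CPM in the amygdala libraries, against 8.24, 8.32 and 9.36 CPM in the accumbens libraries. Rnf168, a ubiquitin ligase of the DNA damage response, had 73.1, 57.1 and 44.8 CPM in the amygdala libraries, against 16.6, 16.8 and 24.3 CPM in the accumbens libraries. Against ventral CA1, its log2 fold change was -1.57 in accumbens cells (adjusted p = 0.0409, edgeR) and 0.01 in amygdala cells (adjusted p = 0.996).

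Nicn1, a protein of the tubulin polyglutamylase complex, had 86.1, 78.3 and 74.1 CPM in the amygdala libraries, against 37.1, 27.0 and 32.3 CPM in the accumbens libraries. Krt222, a keratin-like protein, had 85.9, 136.9 and 77.4 CPM in the amygdala libraries, against 39.2, 38.8 and 39.8 CPM in the accumbens libraries. In both genes accumbens cells were below ventral CA1 by the edgeR fit (adjusted p = 0.0152 for Nicn1 and 0.028 for Krt222). Amygdala cells had log2 fold changes against ventral CA1 of -0.22 (adjusted p = 0.83) and -0.16 (adjusted p = 0.907). Hilpda, a protein of lipid droplets induced by low oxygen, had 18.3, 16.5 and 1.96 CPM in the amygdala libraries, against 0.115, 0.0717 and 0.240 CPM in the accumbens libraries. The next genes leaned on 1 library. Mesp2, a transcription factor of somite formation, reached 194.3 CPM in amygdala library 1 and 2.30 CPM at most in the other two. Rcor2, a corepressor partner of histone demethylase LSD1, reached 69.9 CPM and Thada 97.9 CPM, both in amygdala library 2.

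**Figure D3:**
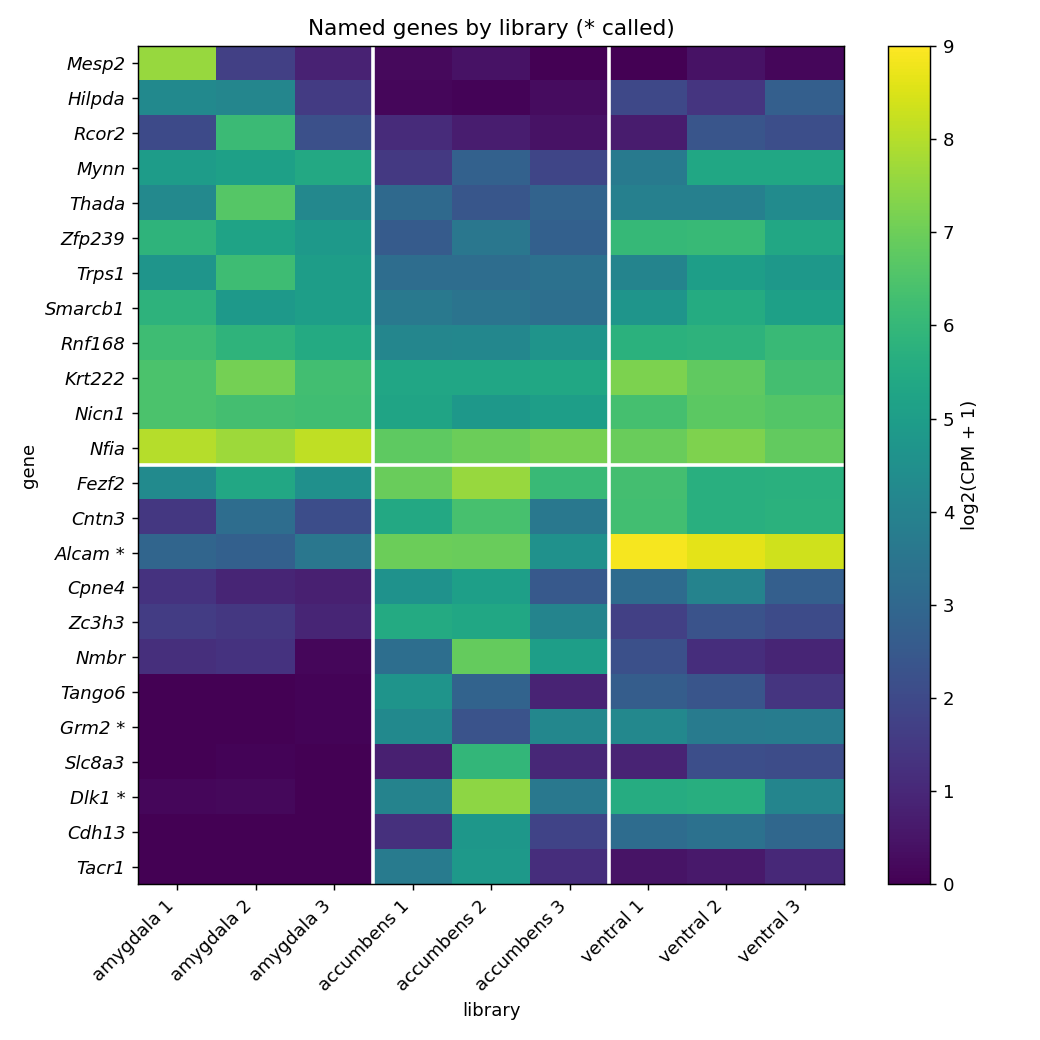
Level of the 24 named genes (rows, called genes starred) in each library (columns), as log2(CPM + 1) in colour, with the 12 genes of higher values in amygdala cells above the 12 of higher values in accumbens cells. Mesp2 is bright in amygdala library 1, and Slc8a3 in accumbens library 2.

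Lists of genes by function were read by their counts, beside the values over all genes tested, where the median log2 fold change of amygdala over accumbens cells was -0.02. Of 41 lists, 2 held a called gene. Members named from here on were chosen after their values were seen, unless they were named above, and none but Alcam and Grm2 passed the test.

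The list of cell adhesion molecules and synaptic organizers had 83 tested members, of which 1, Alcam, was called lower in amygdala cells and 0 were called higher. Its median log2 fold change was -0.09, and 14 members had groups that did not overlap, 3 with amygdala libraries above and 11 with accumbens libraries above. That is 16.9% of the list, against 10.6% of all genes. Cntnap5b, a contactin-associated protein, had 0.834, 0.0742 and 0.0515 CPM in the amygdala libraries, against 16.0, 7.10 and 6.24 CPM in the accumbens libraries. Cdh7, a cadherin, had 0.0521, 1.04 and 0.0515 CPM in the amygdala libraries, against 19.3, 4.59 and 4.26 CPM in the accumbens libraries. Nrxn3, a presynaptic neurexin, had 122.7, 136.6 and 121.9 CPM in the amygdala libraries, against 184.8, 177.2 and 284.0 CPM in the accumbens libraries. All 3 of these had their highest amygdala library below the lowest accumbens library. Cdh10, Pcdh7 and Pcdh15 were the 3 members with amygdala libraries above, Cdh10 at 66.5 to 136.1 CPM, against 35.7 to 65.8 CPM in the accumbens libraries.

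Of 59 tested axon guidance genes 0 were called, the median log2 fold change was -0.01, and 3 had groups that did not overlap, 5.08% of the list. Sema6a, a transmembrane semaphorin, had 0, 12.9 and 0.258 CPM in the amygdala libraries, against 17.9, 72.0 and 38.7 CPM in the accumbens libraries. Of 37 tested extracellular matrix genes 0 were called, with a median of -0.38 and 6 members, or 16.2%, that did not overlap. Col6a1 and Col6a2, chains of collagen VI, were both lower in every amygdala library, Col6a1 at 0.313, 1.41 and 8.87 CPM, against 64.9, 46.3 and 20.6 CPM in the accumbens libraries. Spock1, a proteoglycan, ran the other way, with 506.2, 763.7 and 568.6 CPM in the amygdala libraries, against 192.0, 304.2 and 349.7 CPM in the accumbens libraries.

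Among 29 tested glutamate receptor genes 1, Grm2, was called, and the median log2 fold change was -0.16. Gria3, an AMPA receptor subunit, had 512.4, 392.8 and 374.5 CPM in the amygdala libraries, against 563.9, 648.4 and 628.2 CPM in the accumbens libraries (adjusted p = 0.366, edgeR). Of 32 tested sodium, calcium and HCN channel genes 0 were called, with a median of -0.19 and 7 members, or 21.9%, that did not overlap, 6 of them with accumbens libraries above. Cacng3, an auxiliary subunit of AMPA receptors, had 0.625, 1.48 and 6.49 CPM in the amygdala libraries, against 27.5, 30.9 and 30.3 CPM in the accumbens libraries. Cacna1d, an L-type calcium channel, had 34.5, 28.1 and 39.5 CPM in the amygdala libraries, against 70.8, 60.3 and 142.1 CPM in the accumbens libraries.

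Of 60 tested potassium channel genes 0 were called, the median log2 fold change was 0.01, and 3 members had amygdala libraries above and 3 accumbens libraries above, 10% of the list. Kcnv1, a modulatory subunit, had 156.1, 94.5 and 125.8 CPM in the amygdala libraries, against 50.4, 49.3 and 84.8 CPM in the accumbens libraries. Of 18 tested GABA receptor genes 0 were called, with a median of -0.45. Of these, 0 had amygdala libraries above and 2 accumbens libraries above, 11.1% of the list against 10.6% of all genes. An unadjusted p under 0.05 (edgeR) was reached by 33.3% of the list, against 9.19% of all genes. Of those members 1 was higher in amygdala cells and 5 in accumbens cells. Of 28 tested monoamine and acetylcholine receptor genes 0 were called, with a median of 0.38.

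Of 24 tested neuropeptide receptor genes 0 were called, with a median log2 fold change of -0.16, and 6, or 25%, did not overlap, 4 of them with accumbens libraries above. Sstr4, a somatostatin receptor, had 6.20, 44.4 and 22.4 CPM in the amygdala libraries, against 81.3, 57.8 and 66.4 CPM in the accumbens libraries. Oprk1, the kappa opioid receptor, had 19.6, 14.0 and 17.4 CPM in the amygdala libraries, against 4.15, 2.30 and 10.6 CPM in the accumbens libraries. Of 16 tested neuropeptide and granin genes 0 were called, with a median of 0.20. In that list 4 members, or 25%, had amygdala libraries above and 0 had accumbens libraries above, against 5.5% and 5.13% of all genes. Tac1, which encodes the precursor of substance P, had 12.8, 8.31 and 7.58 CPM in the amygdala libraries, against 0.403, 0 and 0 CPM in the accumbens libraries (adjusted p = 0.367, edgeR). Its values thus lay the other way from those of Tacr1, the receptor of that peptide, and neither passed the test. Scg2, a granin, had 321.7, 152.4 and 255.5 CPM in the amygdala libraries, against 121.7, 147.7 and 93.8 CPM in the accumbens libraries.

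Of 51 tested pyramidal transcription factor genes 0 were called, the median log2 fold change was -0.15, and 4 had amygdala libraries above and 4 accumbens libraries above, 15.7% of the list. Emx2, a homeobox gene of the hippocampus, had 2.42 to 15.7 CPM in the amygdala libraries, against 0.06 to 0.288 CPM in the accumbens libraries. Mef2c, a factor known for its part in synapse number, had 2.81, 1.71 and 6.13 CPM in the amygdala libraries, against 13.3, 24.7 and 36.1 CPM in the accumbens libraries. Of 23 tested immediate-early genes, which are induced by activity and by handling of the tissue, 0 were called, with a median of -0.14.

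Of 45 tested synaptic release genes 0 were called, with a median log2 fold change of 0.06, and 5 had amygdala libraries above and 1 accumbens libraries above, 13.3% of the list. Vamp1, a vesicle SNARE, was that one, with 6.15, 11.7 and 11.0 CPM in the amygdala libraries, against 53.5, 43.3 and 17.9 CPM in the accumbens libraries. Of 48 tested calcium and kinase signalling genes 0 were called, with a median of 0.07. Prkaca, the catalytic subunit of protein kinase A, had 446.7, 644.4 and 557.9 CPM in the amygdala libraries, against 283.1, 308.1 and 396.2 CPM in the accumbens libraries. Of 77 tested oxidative phosphorylation genes 0 were called, with a median of 0.16, and 6 did not overlap, 7.79% of the list, below the 10.6% of all genes. The 14 tested genes of the mitochondrial genome had a median of 0.13 and 0 calls. Of these, 3 had amygdala libraries above and 0 accumbens libraries above, 21.4% of the list.

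Genes of the CA1 long axis gave no call either. Of 19 tested genes of the ventral pole 2 had amygdala libraries above and 2 accumbens libraries above, 21.1% of the list, with a median log2 fold change of -0.05. Grp, gastrin-releasing peptide, had 291.7, 169.8 and 170.1 CPM in the amygdala libraries, against 166.3, 140.6 and 149.2 CPM in the accumbens libraries. Of 8 tested dorsal pole genes 0 had groups that did not overlap, and the median was -0.13. Of 11 tested subiculum markers 0 were called, and Rorb and Bhlhe22 did not overlap, in opposite directions. That is 18.2% of the list, against 10.6% of all genes. Bhlhe22 had 5.52, 6.08 and 6.65 CPM in the amygdala libraries, against 30.8, 30.8 and 9.12 CPM in the accumbens libraries.

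**Figure D4:**
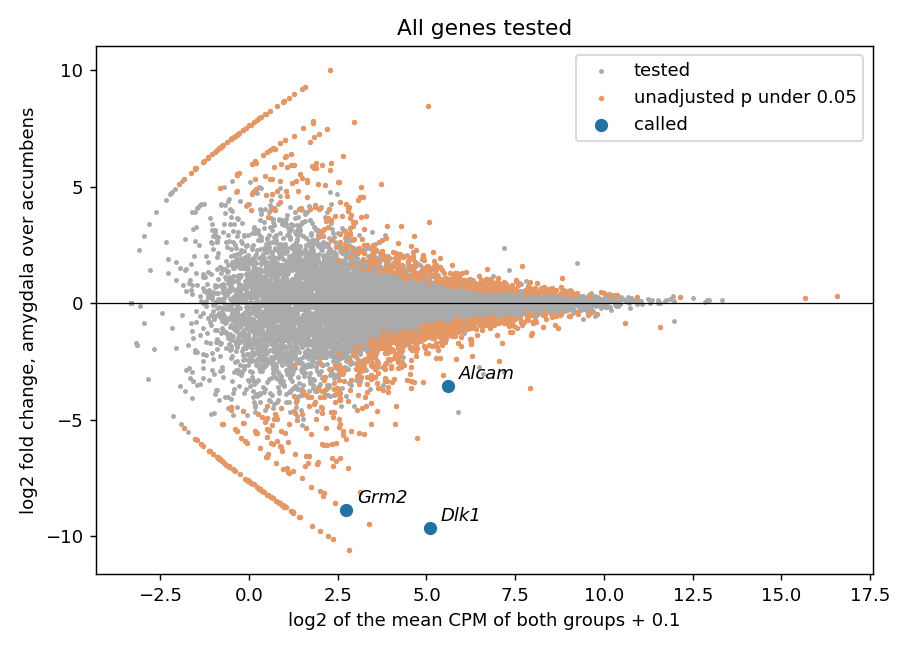
Log2 fold change of amygdala over accumbens cells (y axis) against the log2 of the mean CPM of both groups plus 0.1 (x axis) for the 12981 genes tested (grey), with genes at an unadjusted p under 0.05 in orange and the 3 called genes in blue. Dlk1 and Grm2 lie at -9.63 and -8.88, and Alcam at -3.54.

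The comparison was also read with 1 library left out at a time. Accumbens library 3 held interneuron transcripts. It also had the lowest accumbens value in 8 of the 12 named genes with higher values in accumbens cells. Without it 11 genes were called, the most for any 1 library left out, and all were lower in amygdala cells. They were Dlk1, Grm2, Alcam, Cntn3, Zc3h3, Fezf2 and Tacr1, described above, with Zbtb18, Tgfb2, Nrp1 and Plekha6. Alcam had a log2 fold change of -3.99 (adjusted p = 2.36e-05, edgeR) and Dlk1 one of -10.13 (adjusted p = 0.00304) in that fit. Nrp1, a receptor for semaphorins and VEGF, had 10.6, 5.79 and 14.0 CPM in the amygdala libraries, against 44.1, 77.8 and 2.52 CPM in the accumbens libraries, so library 3 lay below the amygdala range. Tgfb2, a growth factor of the TGF-beta family, had 13.9, 2.67 and 12.01 CPM in the amygdala libraries, against 119.2, 108.0 and 11.2 CPM in the accumbens libraries. Without amygdala library 2 or 3 no gene was called by the edgeR fit, with 1473 and 1313 genes at an unadjusted p under 0.05. Without amygdala library 1, 3 genes were called, and none of them was Dlk1, Grm2 or Alcam. Without accumbens library 1, 1 gene was called, and without accumbens library 2, 2 genes.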

How the data were processed

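The authors deposited raw read counts per Ensembl gene and a Cuffdiff table of FPKM per gene and library. Builds NCBIM37 and mm9 come from the submitters' processing notes, as do the tools: HTSeq, DESeq2, Cuffdiff 2.1.1 and TopHat2 2.0.6. The strand used in counting is not given in the sources used here, so a gene and an overlapping antisense gene cannot be told apart. Per the labels' protocols, cDNA was amplified before library preparation, and no molecular identifiers are mentioned. Intervals and floors therefore reflect counting error alone.

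Counts of the amygdala, accumbens and ventral libraries (9) were fitted with edgeR 4.0.16 in R 4.3.3: TMM scaling, filterByExpr, robust quasi-likelihood F tests and Benjamini-Hochberg adjustment, called at 0.05. Libraries are numbered 1 to 3 as in the count table. CPM used TMM sizes over all 48 libraries. FPKM were tested with limma 3.58.1 on log2(FPKM + 1) and counts with DESeq2 1.42.0 as alternatives. Symbols matched 32897 of 37620 identifiers. Code was tested on simulated data.

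Named genes were called genes, then those with the smallest p whose groups did not overlap and whose higher mean reached 10 CPM, up to 12 per direction, without predicted, ribosomal protein, small RNA, mitochondrial and sex-linked genes. Promoters came from RefSeq, which matched 20 of the 24. Members and lists were chosen with earlier results of these data known.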

Additional observations from a re-analysis of the deposited data

How the results depend on the processing

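The 3 calls, all at least 3-fold apart, stayed 3 with RLE or upper-quartile scaling, a stricter filter on low counts, or mitochondrial genes left out. DESeq2 called 199 genes (170 at least 3-fold apart) and kept 2 of the 3, as Dlk1 got no adjusted p there. Without a filter on low counts 180 were called (144 at least 3-fold apart), and with all 48 libraries in the fit 354 (254). Limma voom with quality weights gave 0 and 0, with 688 genes at an unadjusted p under 0.05. The 6 projection libraries alone gave 0 and 0, and limma on FPKM gave 0 and 0 with a pseudocount of 1 or 0.1, with 1047 and 1057 genes at an unadjusted p under 0.05. In the 6-library edgeR fit the adjusted p was 0.115 for Dlk1 and 0.462 for Grm2 and Alcam. Leaving out 1 library at a time gave 0 to 11 calls, 0 to 10 of them at least 3-fold apart, and 2, Dlk1 and Alcam, whichever ventral library was left out. The cause of these shifts was not tested. No named gene changed sign in the settings that gave it a value: 21 settings for most of the 24, 20 for Dlk1 and Rcor2, 19 for Tacr1 and 18 for Mesp2 and Slc8a3. Bounds and ratios without 1 accumbens library were added after the data were seen.

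Replicate numbers did not pair the libraries: deviations of same-numbered amygdala and accumbens libraries correlated at 0.0206, -0.0128 and 0.0112. With a replicate block in the 6-library fit, 1 gene, Dlk1, was called (adjusted p = 0.0119, edgeR), and 1 was at least 3-fold apart.

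Groups did not overlap for 714 genes with amygdala libraries above and 666 with accumbens libraries above, against 653 and 694 with RLE, 762 and 626 with upper-quartile scaling, and 591 and 667 in FPKM. With 3 libraries a group, an exact two-sided permutation test of 1 gene cannot go below 0.1.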
